A study of Drosophila melanogaster with 30 samples.

Results

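The comparison described here asks which genes changed with age differently in the head and in the body of normally sleeping male Drosophila melanogaster. For each gene the log2 change of aged NSF over young bodies was subtracted from the log2 change of aged NSF over young heads, so that a positive difference means a more positive change in heads. A count table of 17559 genes was used, and the 12318 genes with enough reads for a test were all fitted. The members are these 12318 genes in 20 libraries: 5 of aged NSF heads, 5 of young heads, 5 of aged NSF bodies and 5 of young bodies. Aged flies were 25 days old and young flies 5 days old. All were adult males of the Cantonized w1118 strain, kept at 25 °C and 60% humidity with 12 h of light and 12 h of dark. The head and the remaining body of single flies were extracted separately and sequenced as polyadenylated RNA. NSF is the label of aged flies described as sleeping normally, in contrast to aged flies with fragmented sleep (SF). The 10 SF libraries were not compared, but they entered the gene filter, the scaling of libraries and the estimate of spread. A fit without them is given with the processing alternatives.

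A fly head is mostly brain, compound eye, cuticle and a layer of fat body, while the body holds flight muscle, gut, fat body, nerve cord and the male reproductive organs. Work on ageing flies has described rising transcripts of the innate immune response, driven by the Toll and Imd pathways, and falling transcripts of mitochondrial respiration. The mitochondrial genome encodes only core subunits of the respiratory chain, and the nuclear genome encodes the remaining subunits. In RNA from whole heads or bodies, fewer cells of a type and less RNA per cell cannot be told apart.

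Library sizes ranged from 1685034 to 3597530 counts in the heads and from 2458538 to 6068426 in the bodies of these 4 groups, and all libraries carry 1 batch date. Photoreceptor markers summed to 31552 to 37599 CPM (counts scaled to library size, per 1000000) in aged NSF heads and 37934 to 54825 CPM in young heads, against at most 847 CPM in any body library, so the tissue labels matched the eye markers. Some body libraries stood apart. The 7 testis markers summed to 277 CPM in aged NSF body 1, to between 2056 and 2847 CPM in the other 4 aged NSF bodies, and to between 2491 and 5159 CPM in young bodies. Aged NSF body 2 held 377 CPM of the opsin ninaE, against 4.82 to 13.3 CPM in the other aged NSF bodies, and its yolk protein transcript Yp1 stood at 336 CPM, against 14.8 to 32.1 CPM. The 4 thoracic muscle markers, Act88F, fln, TpnC4 and Act79B, summed to 307 to 515 CPM in aged NSF bodies and to 1333 to 2036 CPM in young bodies. The 6 gut markers summed to 204 to 669 CPM in aged NSF heads and to 15.8 to 26.9 CPM in young heads, and Amy-p alone gave 196 to 664 CPM of the sums in aged NSF heads. The part of these marker shifts in the results was not tested, except where values without aged NSF bodies 1 and 2 are given.

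**Figure D1:**
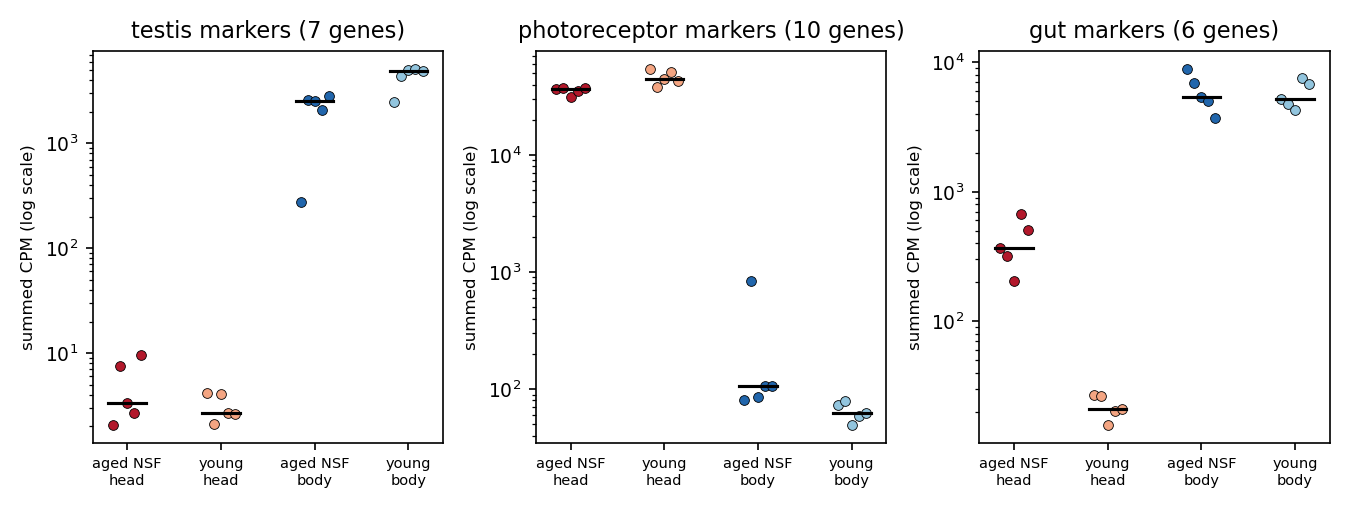
Summed CPM of testis, photoreceptor and gut markers on log axes, 1 point per library in order of replicate number, with a bar at the median of 5. Aged NSF body 1 lies at 277 CPM of testis markers, below every other body, aged NSF body 2 lies at 847 CPM of photoreceptor markers, above every other body, and aged NSF heads lie above young heads in gut markers.

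The ageing change differed between head and body for 1622 of 12318 genes (13.2%) at a Benjamini-Hochberg adjusted p under 0.05 of edgeR's quasi-likelihood test. The difference was positive for 534 genes (4.34%) and negative for 1088 (8.83%). The split between directions depended on how libraries of such unlike tissues were scaled. With TMM factors computed over all genes, the median difference over the 7699 genes averaging at least 5 CPM in each tissue was -0.24 on the log2 scale. It was -0.23 with TMM factors computed within each tissue, -0.03 with RLE factors and -0.03 in DESeq2. With TMM factors from genes of at least 5 CPM in both tissues it was 0.0068. The share of positive calls was accordingly 32.9%, 33.7%, 60.9%, 62.9% and 65.5%. The genes of the last scaling were chosen at plain library size, so they need not be exactly the 7699. A median near 0 there was largely fixed by taking the factors from nearly the same genes. In bodies alone the scaling moved the same median by a similar amount, to 0.24 with TMM and -0.01 with RLE, and calls that rose made up 53.1% with TMM and 30.7% with RLE. The account below therefore leads with the 1002 calls, 532 positive and 470 negative, that passed in the same direction under all 5 scalings, here called kept calls. These scalings were not independent. RLE and DESeq2 shared a median of -0.03, and TMM within tissues nearly repeated TMM over all genes. The alternatives all raised the median, and the rule kept 532 of 534 positive but 470 of 1088 negative calls. The split of kept calls by direction therefore depends on this rule. A fit without the SF libraries, not part of the rule, gave 594 positive and 315 negative calls. Without aged NSF bodies 1 and 2, 1467 genes passed, 510 positive and 957 negative. Without aged NSF body 3, young body 2, young body 3 or young body 5, TMM over all genes took a head library as its reference. The median difference was then 0.0043, -0.0013, 0.0059 and 0.0084. Lower numbers of calls given below without 1 of these libraries cannot be told apart from this change of scaling.

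**Figure D2:**
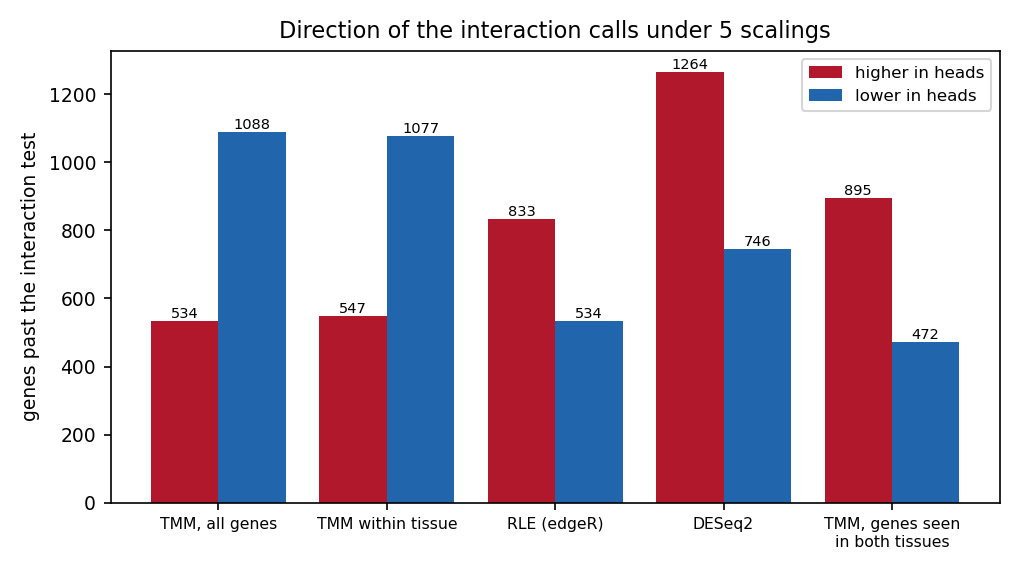
Genes past the interaction test with a more positive (red) and a more negative (blue) change in heads under 5 ways of scaling the libraries. Negative calls outnumber positive ones with TMM over all genes or within tissues, 1088 to 534 and 1077 to 547, and are outnumbered under RLE, DESeq2 and TMM over genes seen in both tissues.

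Among the 7699 genes seen in both tissues, 1327 passed the interaction test (17.2%), 320 positive (4.16%) and 1007 negative (13.1%). Of these, 735 were kept calls (9.55% of genes), 318 positive (4.13%) and 417 negative (5.42%). With TMM over all genes, 877 of the 7699 rose in heads (11.4%) and 800 fell (10.4%), and in bodies 2321 rose (30.1%) and 830 fell (10.8%). With RLE 1354 rose and 1539 fell in bodies, so the excess of rises there rested on the scaling. The changes in the tissues went along with each other in part, with a Pearson r of 0.58 and a Spearman rho of 0.41 across genes, which are not independent replicates. The classes that follow use the calls of each tissue with TMM over all genes. Most kept calls came from genes that passed in 1 tissue alone. The positive ones comprised 162 genes that fell in bodies only, 90 that rose in heads only, 29 that rose in both, 17 that rose in heads and fell in bodies, 17 that passed in neither and 3 that fell in both. The negative ones comprised 256 that rose in bodies only, 84 that fell in heads only, 65 that fell in heads and rose in bodies, 10 that rose in both and 2 that fell in both. The tissue in which a gene passed is therefore partly a matter of scaling. The same holds for calls in opposite directions under TMM, as described for those genes below. Counts of gene groups seen in both tissues are to be read against these shares. They are 13.1% for negative and 4.16% for positive calls, and 5.42% and 4.13% for kept ones.

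**Figure D3:**
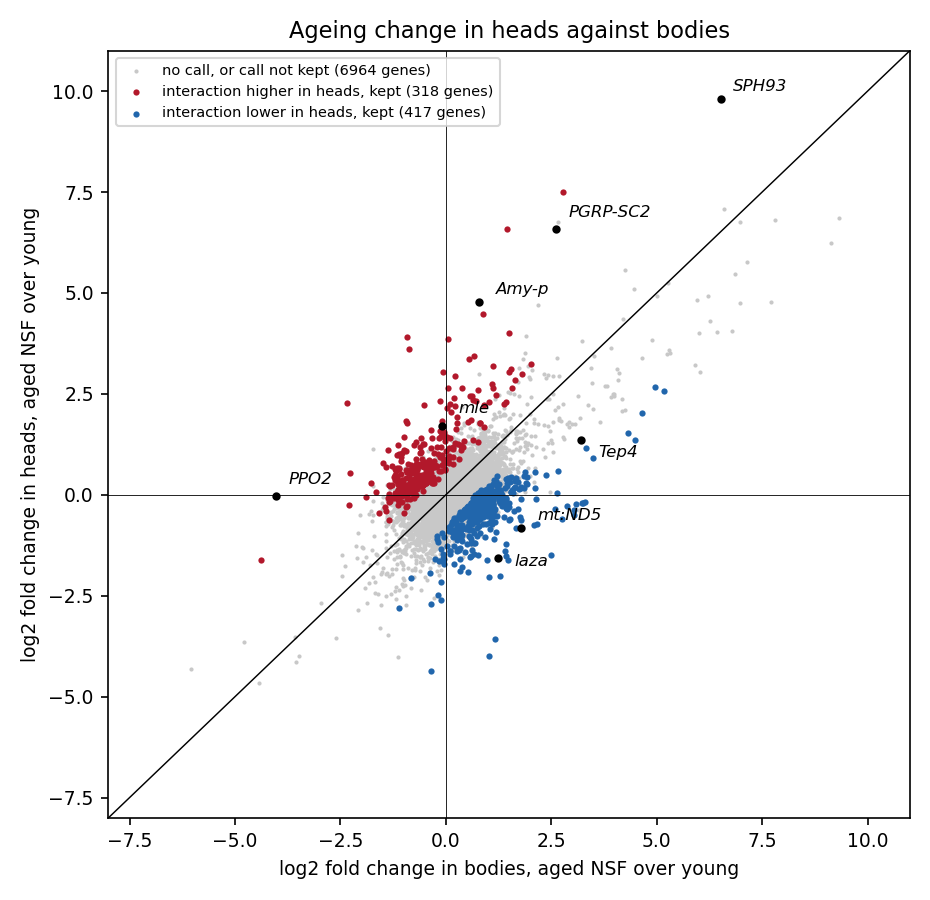
Log2 fold change of aged NSF over young in heads (vertical) against bodies (horizontal) for 7699 genes averaging at least 5 CPM in each tissue, with the line of equal change. Red genes (318) lie above the line and blue genes (417) below it by the interaction test under all 5 scalings, and grey genes did not pass or were not kept, among them SPH93.

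Transcripts of the mitochondrial genome differed between the tissues for nearly every protein-coding gene with TMM over all genes, though fewer were kept calls. Of its 12 measured protein-coding genes, all seen in both tissues, 6 fell and none rose in aged NSF heads, while 10 rose and none fell in aged NSF bodies. The difference was negative and called for 11 of 12, with a median of -1.16 against -0.24 over all genes seen in both tissues, and 8 of the 11 were kept calls. Without aged NSF bodies 1 and 2, 9 of 12 passed, and 7 passed without young body 2, 3 or 5. The share of all counts that came from mitochondrial genes was 5.4% to 7.33% in aged NSF heads against 9.86% to 13.6% in young heads, and 8.51% to 10.5% in aged NSF bodies against 7.24% to 13.8% in young bodies. The head ranges did not overlap and the body ranges did. These shares include the ribosomal RNA genes mt:lrRNA and mt:srRNA, which are not among the 12 genes above. The RNAs mt:lrRNA and mt:srRNA changed by -1.24 and -1.05 in heads and by -0.16 and -0.62 in bodies, and neither was a kept call.

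The complex I subunit gene mt:ND5 (mitochondrial genome, 6409 to 8125, minus strand) was at 483, 609, 502, 380 and 766 CPM in aged NSF heads, against 565, 776, 1084, 1565 and 876 CPM in young heads. It was at 1029, 1020, 914, 814 and 1018 CPM in aged NSF bodies, against 379, 247, 229, 308 and 225 CPM in young bodies. The body groups were separate, with every aged library above every young one, while the head groups overlapped. The change was -0.83 ± 0.21 (log2, SE) in heads and 1.79 ± 0.22 in bodies, a difference of -2.62 ± 0.30 (edgeR adjusted p = 2.4e-06), and the opposite directions were called under all 5 scalings. In the aged SF flies, whose comparison shares the young libraries, mt:ND5 averaged 370 ± 66.8 CPM in heads and 970 ± 218 CPM in bodies (SD, n = 5 each). The cytochrome c oxidase gene mt:CoII averaged 1592 ± 286 CPM in aged NSF heads and 2734 ± 355 CPM in young heads, against 3149 ± 392 CPM in aged NSF bodies and 2180 ± 375 CPM in young bodies (SD, n = 5 each). Its difference was -1.31 ± 0.20 (edgeR adjusted p = 7.37e-05). The genes mt:ND4L and mt:ND2 changed little in heads (-0.20 and -0.21, neither called) and rose in bodies by 3.26 and 3.23, and mt:ND4 differed by -1.76 ± 0.30. In contrast, mt:ND6 did not pass (-0.96, edgeR adjusted p = 0.268).

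Nuclear genes of oxidative phosphorylation fell in the heads: 61 of 70 members seen in both tissues were lower in aged NSF heads and none was higher, with a median of -0.78. In bodies the count rested on the scaling, since 11 fell with TMM over all genes, with a median of -0.22, and 43 fell with RLE, with a median of -0.47. Accordingly 26 of the 70 passed the interaction test, all negative, and 5 were kept calls. The calls fell to 2 without aged NSF body 3, to 1 without young body 2 or young body 3 and to 4 without young body 5. In these fits TMM took a head library as its reference. The 13 ATP synthase genes all fell in heads and none fell in bodies with TMM over all genes; 8 passed the interaction test and 1 was kept. That gene was ATPsyn-gamma (now ATPsyngamma), a subunit of the rotating stalk, at 233, 253, 272, 262 and 198 CPM in aged NSF heads against 440, 472, 551, 739 and 527 CPM in young heads. In bodies it was at 518, 389, 447, 430 and 370 CPM in aged NSF against 526, 382, 428, 560 and 567 CPM in young libraries. The head groups were separate and the body groups overlapped, for a difference of -0.97 ± 0.20 (edgeR adjusted p = 0.00175). Of the 14 genes listed for the tricarboxylic acid cycle, all 14 fell in heads and 5 fell in bodies (11 with RLE). The interaction test called 4, and 2 were kept. These were Scsalpha (now Scsalpha1), a succinyl-CoA synthetase subunit, and Mdh1, the cytosolic malate dehydrogenase (-1.03 ± 0.23 and -1.15 ± 0.29). Of 14, 2 passed without aged NSF body 3 or without young body 5, 1 without young body 2 and none without young body 3, where Scsalpha and Mdh1 were both lost; Mdh1 was also lost without young body 2.

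Cytosolic ribosomal protein genes rose in aged NSF bodies and hardly moved in aged NSF heads. Of 84 members seen in both tissues, 81 rose and none fell in bodies, whereas 4 rose and 1 fell in heads; the medians were 0.77 in bodies and 0.04 in heads. The interaction test called 67 of 84, all negative, with a median of -0.74, and 26 were kept calls. In bodies 74 still rose under RLE, and without aged NSF bodies 1 and 2 the interaction test called 59. It called 32 without aged NSF body 3, 13 without young body 2, 12 without young body 3 and 32 without young body 5. In these fits, too, TMM took a head library as its reference. RpL5, a 60S subunit protein that binds 5S ribosomal RNA, was at 1247, 1274, 1315, 1415 and 1428 CPM in aged NSF heads against 1412, 1568, 1327, 2062 and 1528 CPM in young heads. It was at 2144, 1998, 1773, 1852 and 2188 CPM in aged NSF bodies against 1367, 1030, 929, 1247 and 1249 CPM in young bodies. Every aged body lay above every young body, while the heads overlapped, and the difference was -1.02 ± 0.17 (edgeR adjusted p = 0.000211). RpS6 and RpL15 differed by -0.93 ± 0.15 and -0.96 ± 0.16. Mitochondrial ribosomal proteins behaved otherwise, with 4 of 71 negative calls, 3 of them kept. All 5 young bodies also carried higher sums of thoracic muscle markers than any aged NSF body, and 4 of 5 did of testis markers. The part of these shifts in the ribosomal protein counts was not tested.

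Subunits of the vacuolar ATPase, the proton pump that acidifies lysosomes and synaptic vesicles, fell in heads for 7 of 20 members and rose in 1, and rose in bodies for 13 and fell in 1. The interaction test called 12, all negative, with a median of -0.68, and 5 were kept. Of all genes seen in both tissues 13.1% were called negative and 5.42% were kept negative calls. With RLE 5 rose in bodies rather than 13. Without aged NSF bodies 1 and 2 it called 8, without aged NSF body 3 or young body 5 it called 4, without young body 2 it called 5 and without young body 3 it called 3. The membrane ring subunit Vha16-1 averaged 1311 ± 96.5 CPM in aged NSF heads and 1422 ± 178 CPM in young heads, against 2272 ± 238 CPM in aged NSF bodies and 1358 ± 109 CPM in young bodies (SD, n = 5 each). Its difference was -0.86 ± 0.15 (edgeR adjusted p = 0.000476). Among autophagy genes 5 of 19 differed, all negative (2 without young body 2, 3 or 5, and 3 without aged NSF head 1, aged NSF body 3 or aged NSF body 5), and the initiating kinase Atg1 was the 1 kept call (-1.43 ± 0.30).

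**Figure D4:**
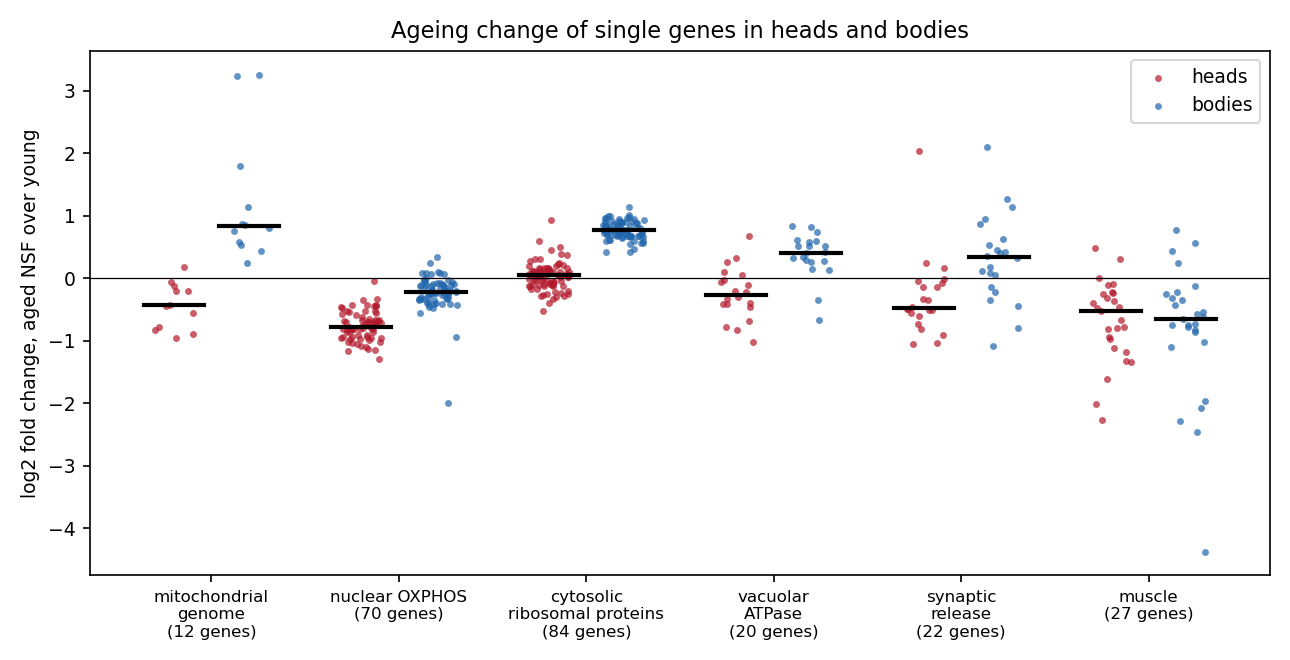
Log2 fold change of aged NSF over young for single genes of 6 groups in heads (red) and bodies (blue), members averaging at least 5 CPM in each tissue, TMM over all genes, with a bar at the median. The medians are -0.43 and 0.83 for the mitochondrial genome, -0.78 and -0.22 for nuclear oxidative phosphorylation, 0.04 and 0.77 for ribosomal proteins, -0.27 and 0.41 for the vacuolar ATPase, -0.47 and 0.34 for synaptic release and -0.52 and -0.65 for muscle, heads first.

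Immune effectors rose in both tissues, and in the unpaired fit the share of them that differed was no higher than the 17.2% of all genes seen in both tissues. Of 16 antimicrobial peptide genes, 15 rose in heads and 16 in bodies, with median changes of 4.53 and 5.93. Only AttD and CG33470 passed the interaction test, and in opposite directions (4.72 and -2.29). The spread between flies was wide, so these tests had little precision: AttA, whose reads may be split with those of its near copy AttB, changed by 4.04 in heads and 6.43 in bodies, and its difference of -2.39 did not pass (edgeR adjusted p = 0.205). Of 17 Bomanins and other Toll-induced peptides, 15 rose in heads and 17 in bodies, and 2 differed, of which CG15068 was kept. Leaving out 1 library gave between 0 and 5 calls of these 17 and between 1 and 3 of the 16 antimicrobial peptides. The difference was below 0 for 16 of the 17 and 12 of the 16, with medians of -1.29 and -1.18 against -0.24 over all genes seen in both tissues. With head and body of 1 number blocked as 1 fly, 10 of the 17 and 5 of the 16 passed. That block called 394 positive and 1249 negative of all 7699 genes. SPH93, a serine protease homologue of the immune response, was listed at 104, 92.6, 88.4, 119 and 107 CPM in aged NSF heads, against 1 count in the 5 young heads together. It was at 52.6, 137, 54.2, 142 and 132 CPM in aged NSF bodies, against 1.12, 1.21, 1.79, 0.382 and 0.534 CPM in young bodies. All aged libraries lay above all young ones in both tissues, and the difference did not pass the interaction test (edgeR adjusted p = 0.0919). From that 1 count the ratio in heads was 1447, with an exact 95% counting interval of 259 to 57208.

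The genes that sense microbes and carry the signal gave a few differences. Of 20 genes of Toll and Imd signalling, 7 rose in heads and 15 in bodies (10 with RLE), 3 differed, all negative, and 2 were kept, a share near the 13.1% negative over all genes. Leaving out 1 library gave between 2 and 5 calls, the 5 without young head 5. The call of tub, 1 of the 3, was lost in 10 of the 20 such fits. The receptor Toll (Tl) was at 56.1, 78.9, 41, 61.8 and 60.3 CPM in aged NSF heads against 75.3, 61.4, 53.1, 44.2 and 35.4 CPM in young heads. It was at 32.5, 64, 35.7, 36.4 and 45.6 CPM in aged NSF bodies against 18.6, 14.9, 14.6, 6.12 and 8.02 CPM in young bodies. Heads overlapped and bodies were separate, giving a difference of -1.60 ± 0.36 (edgeR adjusted p = 0.00389). SPE, the protease that activates the Toll ligand Spätzle, averaged 256 ± 36.6 CPM in aged NSF heads and 172 ± 70.8 CPM in young heads, against 250 ± 82.4 CPM in aged NSF bodies and 58.2 ± 20.3 CPM in young bodies (SD, n = 5 each), a difference of -1.54 ± 0.39 (edgeR adjusted p = 0.00978). This call was lost in 2 of the 20 fits that each left out 1 library. Of 20 immune recognition genes seen in both tissues, 1 differed with a positive and 4 with a negative sign, of which 1 and 3 were kept; without young body 2 or 3 the calls were 2 and 3 in all. The thioester protein Tep4 rose by 1.36 in heads and 3.21 in bodies, a difference of -1.85 ± 0.42. Among negative regulators of the response, nec, a serpin, differed by -1.25, while the peptidoglycan amidase genes PGRP-SC2 and PGRP-SC1b, whose enzymes degrade the bacterial elicitor, had positive differences, and PGRP-LB and PGRP-SB1 did not pass (1.23 and -2.16). PGRP-SC2 was at 594, 618, 191, 596 and 886 CPM in aged NSF heads against 2.1, 1.57, 0.583, 1.8 and 23 CPM in young heads. In bodies it was at 324, 284, 107, 246 and 998 CPM in aged NSF against 36.9, 45.3, 57, 79.5 and 102 CPM in young libraries. The groups were separate in both tissues, and the difference was 3.96 ± 1.04 (edgeR adjusted p = 0.0136). Its near relative PGRP-SC1b had no count in young heads and 31 counts in aged NSF heads, at least 10.2-fold higher when 3 counts over the 5 young libraries are taken as the floor. The call of AttD (4.72 ± 1.48, edgeR adjusted p = 0.0345) was lost in 6 of the 20 fits that each left out 1 library, and without aged NSF bodies 1 and 2.

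Genes of synaptic release, most of them neuronal, gave mainly negative differences. Of 22 members seen in both tissues, 9 fell and 1 rose in heads, while 8 rose and 3 fell in bodies (4 rose and 5 fell with RLE). The interaction test called 10 negative and 1 positive, and 7 and 1 of these were kept, against 13.1% negative and 5.42% kept negative of all genes seen in both tissues. Rop, the Sec1/Munc18 protein needed for vesicle fusion, averaged 207 ± 30.7 CPM in aged NSF heads and 291 ± 29.8 CPM in young heads, against 127 ± 6.1 CPM in aged NSF bodies and 87.9 ± 8.73 CPM in young bodies (SD, n = 5 each). Its difference was -1.02 ± 0.16 (edgeR adjusted p = 9.99e-05), with separate groups in both tissues. Synapsin (Syn), which coats synaptic vesicles, was at 281, 273, 204, 256 and 300 CPM in aged NSF heads against 342, 339, 286, 197 and 290 CPM in young heads. It was at 151, 158, 88.4, 108 and 201 CPM in aged NSF bodies against 66.7, 52.4, 46.1, 65.8 and 63.3 CPM in young bodies. Only the body groups were separate, for a difference of -1.41 ± 0.25 (edgeR adjusted p = 0.000428). The SNARE protein gene Snap25 fell by 0.82 in heads and did not pass in bodies (0.44), a difference of -1.26 ± 0.25. The 2 enzymes of dopamine synthesis had differences of opposite sign, with a fall in neither tissue. The gene ple, tyrosine hydroxylase, changed by 2.04 in heads and 0.12 in bodies, a difference of 1.92 (edgeR adjusted p = 0.022). Ddc, dopa decarboxylase, changed by 0.16 in heads and 2.10 in bodies, a difference of -1.95 (edgeR adjusted p = 0.00977). Both were kept calls. The 8 neuron markers fixed for checking tissues summed to 2093 to 2811 CPM in aged NSF heads and 2733 to 4527 CPM in young heads, and to 236 to 385 CPM in aged NSF bodies and 270 to 367 CPM in young bodies. The part of the head shift in the synaptic gene counts was not tested.

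Neuropeptide genes gave 5 negative calls among 20 members seen in both tissues, and 4 were kept (3 calls without young body 2, 3 or 5). The shares over all such genes were 13.1% negative and 5.42% kept negative. Short neuropeptide F (sNPF) averaged 141 ± 29.1 CPM in aged NSF heads and 137 ± 12.3 CPM in young heads, against 16.1 ± 1.84 CPM in aged NSF bodies and 5.31 ± 1.77 CPM in young bodies (SD, n = 5 each), a difference of -1.54 ± 0.36 (edgeR adjusted p = 0.00583). The ion transport peptide gene ITP showed the same pattern, with overlapping heads and separate bodies (-1.16 ± 0.24). Glia gave 3 negative calls among 16 genes, against 13.1% of all genes, and 1 without aged NSF body 3 or young body 2, 3 or 5. The kept call was GLaz, a lipocalin related to apolipoprotein D, at 15.5 ± 4.03 CPM in aged NSF heads and 47.0 ± 9.97 CPM in young heads, against 29.2 ± 6.14 CPM in aged NSF bodies and 23.3 ± 2.74 CPM in young bodies (SD, n = 5 each). The difference of GLaz was -1.91 ± 0.29 (edgeR adjusted p = 7.9e-05). The 5 glial markers summed to 740 to 1197 CPM in aged NSF heads and 1306 to 1613 CPM in young heads, a shift whose part was not tested.

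Phototransduction genes, expressed mainly in the eye, gave 11 negative calls among the 18 members that reached 5 CPM in both tissues, and 8 were kept. The photoreceptor markers themselves summed to 80.4, 847, 86.5, 106 and 106 CPM in aged NSF bodies, against 49.4 to 79.3 CPM in young bodies, so that all 5 aged NSF bodies lay above all young ones and body 2 far above the rest. Single markers in the sum did not all shift. The gene trp was at 0.315, 1.69, 0.531 and 0.296 CPM in aged NSF bodies 1, 3, 4 and 5, against 1.20 to 3.44 CPM in young bodies. Outside body 2, ninaE was at 4.82 to 13.3 CPM in aged NSF bodies, against 4.79 to 12.7 CPM in young bodies, whereas inaD, given below, was mostly higher. The part of the shift of the summed markers in the counts of the group was not tested. Without aged NSF bodies 1 and 2, 8 of 18 passed, and 7, 6, 5 and 7 passed without aged NSF body 2, young body 2, young body 3 and young body 5 taken singly. Of the 4 opsin and arrestin members, 3 passed with all libraries and 1 without aged NSF bodies 1 and 2 together. Arrestin 2 (Arr2) stood at 139 CPM in aged NSF body 2 against a group median of 7.47 CPM, and ninaE, Arr1, Yp1 and Yp2 likewise had their highest aged body value there. All 3 yolk protein genes passed with the complete set of libraries and none without aged NSF bodies 1 and 2. The scaffold gene inaD was called regardless of those bodies: it was at 494, 478, 397, 486 and 589 CPM in aged NSF heads against 654, 659, 777, 1151 and 829 CPM in young heads. It was at 14.8, 12.8, 4.82, 14.9 and 7.7 CPM in aged NSF bodies against 2.79, 0.694, 1.99, 2.29 and 5.34 CPM in young bodies. The head groups were separate and the body groups overlapped in 1 library each. Its difference was -2.83 ± 0.41 (edgeR adjusted p = 4.17e-05) and -2.58 without aged NSF bodies 1 and 2.

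The single genes with the smallest adjusted p included mle, CG44774 and CG8343. The maleless gene mle (chromosome arm 2R, 5974857 to 5980778, minus strand), an RNA helicase of the male dosage compensation complex, was at 280, 307, 319, 296 and 328 CPM in aged NSF heads against 95.5, 84.2, 98.6, 111 and 78.7 CPM in young heads. It was at 27.7, 41.7, 34.4, 28.7 and 34.3 CPM in aged NSF bodies against 32.4, 43.4, 40.7, 33.6 and 27.8 CPM in young bodies. Heads were separate and bodies overlapped, for a difference of 1.81 ± 0.20 (edgeR adjusted p = 1.6e-06). Aged SF flies, set against the same young libraries, averaged 273 ± 17.7 CPM of mle in heads and 41.1 ± 8.44 CPM in bodies (SD, n = 5 each). The uncharacterized gene CG44774 (X) averaged 475 ± 96.0 CPM in aged NSF heads and 94.5 ± 19.2 CPM in young heads, against 423 ± 53.3 CPM in aged NSF bodies and 468 ± 70.5 CPM in young bodies (SD, n = 5 each), with 34.9% of its exonic length shared with another gene. CG8343 (2R) was abundant in young heads, at 823, 3864, 3048, 1755 and 2644 CPM, against 0, 0.313, 2.49, 1.01 and 1.08 CPM in aged NSF heads. In bodies CG8343 had 44 counts over the 5 aged NSF libraries and 7 counts over the 5 young ones. CG9676 and CG8329 were also high in young heads and near 0 in the other groups. CG9676 had 2 counts in aged NSF heads and 8451 in young heads, a ratio of young over aged of 4289, with an exact 95% counting interval of 1187 to 35418.

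Of 37 digestive enzyme genes tested, 4 differed, all positive, and 2 of them, Amy-p and Amy-d, reached 5 CPM in both tissues. Over all genes tested 13.2% differed, and 4.34% with a positive sign. The α-amylase gene Amy-p (2R) was at 355, 316, 196, 664 and 502 CPM in aged NSF heads against 21.5, 18.4, 7.58, 13.5 and 12.1 CPM in young heads. It was at 1277, 1435, 678, 936 and 818 CPM in aged NSF bodies against 517, 352, 458, 927 and 722 CPM in young bodies. The head groups were separate, the body groups overlapped, and the difference was 3.99 ± 0.48 (edgeR adjusted p = 5.72e-06). Amy-d, a nearly identical copy whose reads may be split with those of Amy-p, differed by 2.81 ± 0.42. The Jonah proteases of the midgut fell in bodies for 15 of 16 members, with 1 interaction call, Jon74E (4.26 ± 0.77), which was at 3.9 ± 1.32 CPM in aged NSF heads and 1.24 ± 1.72 CPM in young heads, against 41.7 ± 17.3 CPM in aged NSF bodies and 203 ± 52.3 CPM in young bodies (SD, n = 5 each).

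PPO2, the prophenoloxidase of the blood cells named crystal cells, passed in bodies and not in heads. It was at 24.8, 33.2, 30.2, 23.6 and 24.8 CPM in aged NSF heads against 35.8, 29.4, 20.4, 27.9 and 26.7 CPM in young heads. It was at 0.315, 1.42, 0, 0 and 1.48 CPM in aged NSF bodies, a total of 9 counts, against 13.8, 6.25, 9.37, 11.9 and 6.95 CPM in young bodies. The bodies were separate, the heads overlapped, and the difference was 3.98 ± 0.61 (edgeR adjusted p = 8.15e-05). The crystal cell transcription factor gene lz did not follow it: it had no count in young bodies and 29 counts in aged NSF bodies, at least 12.6-fold higher with 3 counts over the young libraries as the floor. The 4 hemocyte markers summed to 41.2 to 83.2 CPM in aged NSF bodies and 68.4 to 121 CPM in young bodies, and the part of that shift was not tested. Muscle gave 2 interaction calls, both with a larger fall in bodies, the actin gene Act79B (-0.24 in heads, not called, and -2.29 in bodies) and the calcium-binding protein gene Scp1 (-1.61 and -4.37). Of the 27 muscle genes seen in both tissues, 15 fell in heads and 18 in bodies.

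**Figure D5:**
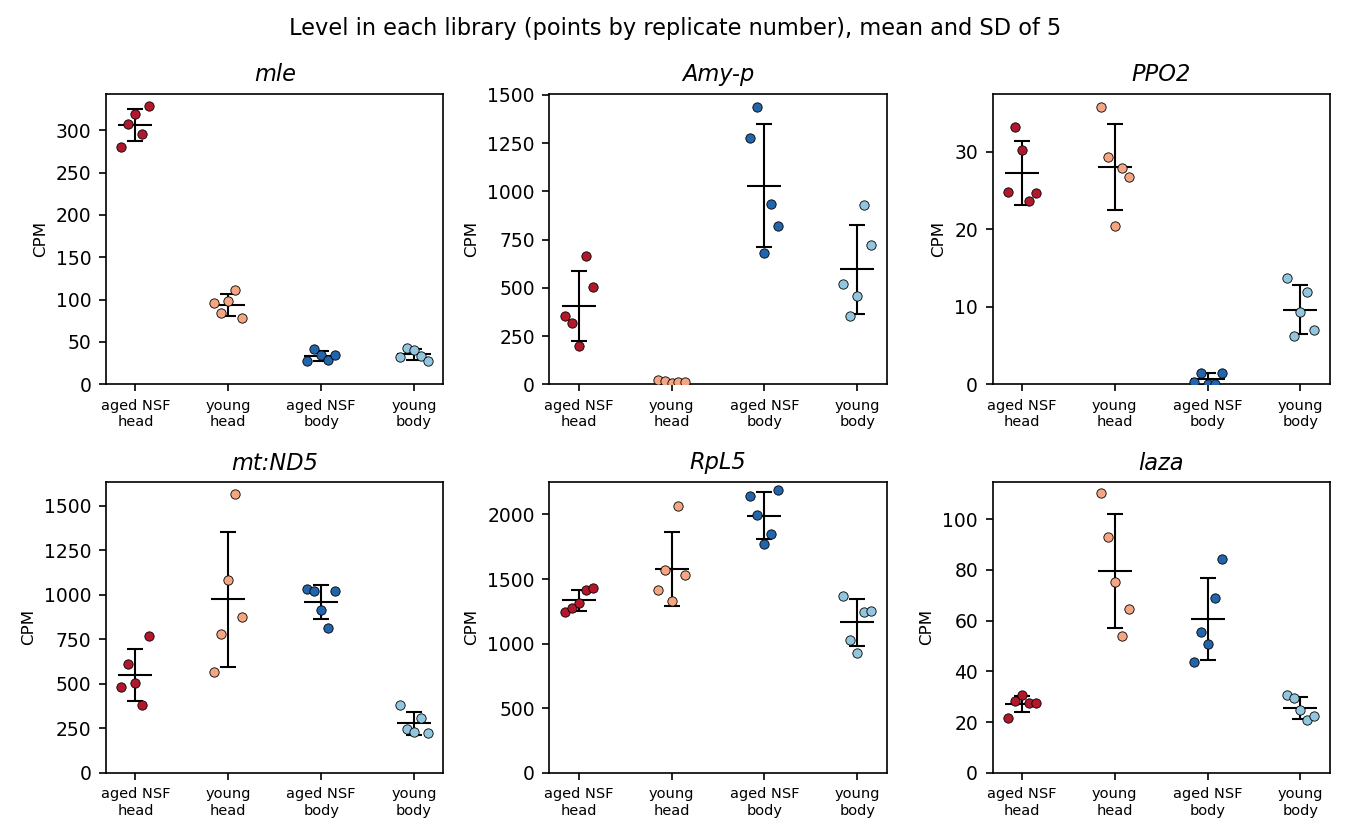
CPM of 6 genes in each library, by replicate number from left to right, with the mean and SD of 5. For mle and Amy-p the head groups are separate and the body groups overlap, for PPO2, mt:ND5 and RpL5 the body groups are separate and the head groups overlap, and for laza both are separate, with aged lower in heads and higher in bodies.

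Opposite directions were called for 123 genes, 45 that rose in heads and fell in bodies and 78 that fell in heads and rose in bodies. All 3 calls held under the 5 scalings for 43 and 37 of them. The excess of the second kind was absent there, but requiring all 5 scalings removed mainly negative differences. The lipid phosphatase gene laza (lazaro, 3L), known from photoreceptors, was at 21.7, 28.2, 30.5, 27.7 and 27.4 CPM in aged NSF heads against 110, 93.1, 75.3, 54.1 and 64.8 CPM in young heads. It was at 43.8, 55.5, 50.8, 69.1 and 84.4 CPM in aged NSF bodies against 30.7, 29.5, 24.7, 20.6 and 22.4 CPM in young bodies. Both tissues had separate groups, in opposite order, and the difference was -2.79 ± 0.32 (edgeR adjusted p = 2.36e-06). The adrenodoxin reductase gene dare, of ecdysteroid synthesis, averaged 16.2 ± 2.61 CPM in aged NSF heads and 66.4 ± 24.9 CPM in young heads, against 25.7 ± 2.81 CPM in aged NSF bodies and 12.6 ± 3.19 CPM in young bodies (SD, n = 5 each). Its difference was -3.06 ± 0.40, and 28.1% of its exonic length is shared with another gene. The lens crystallin gene Crys (listed as Cry) fell by 3.57 in heads, to 15 counts over the 5 aged libraries, and rose by 1.17 in bodies.

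Genes that rose in heads and fell in bodies included Pof, whose protein binds chromosome 4, Nup58 of the nuclear pore, the microcephalin gene MCPH1 and the fucosyltransferase gene FucTB. Pof was at 24.8, 22.2, 18.8, 43.2 and 26.4 CPM in aged NSF heads against 18.5, 15.5, 8.17, 12.2 and 15.1 CPM in young heads. It was at 73.7, 328, 313, 304 and 335 CPM in aged NSF bodies against 458, 606, 646, 552 and 557 CPM in young bodies. Both tissues had separate groups, and the difference was 1.999 ± 0.39 (edgeR adjusted p = 0.00108). Aged NSF body 1, the library with the lowest testis markers, was the lowest body for Pof, and also for FucTB, MCPH1 and Nup58. Without aged NSF bodies 1 and 2 the difference of Pof was 1.76. Der-1, a component of protein degradation at the endoplasmic reticulum, averaged 71.2 ± 9.56 CPM in aged NSF heads and 50.7 ± 5.93 CPM in young heads, against 118 ± 15.1 CPM in aged NSF bodies and 175 ± 20.5 CPM in young bodies (SD, n = 5 each). Its difference was 1.05 ± 0.18 (edgeR adjusted p = 0.000345), while Atf6, a sensor of the unfolded protein response, went the other way (-0.99 ± 0.21).

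A larger class moved in 1 direction in both tissues with no interaction call under TMM over all genes: 591 genes rose and 235 fell. This split was not counted under the other scalings. Body calls were 2640 higher and 2331 lower with TMM over all genes, and 1570 and 3538 with RLE. A missed threshold does not show equal change, so intervals are given. Phk-3 (pherokine 3) rose by 2.38 in heads and 2.40 in bodies, with a 95% interval of the difference from -0.77 to 0.73. The proline dehydrogenase gene slgA fell by 0.84 in heads and 0.90 in bodies, with an interval from -0.29 to 0.40. The sarcoplasmic calcium pump gene Ca-P60A (SERCA) was at 591, 532, 559, 395 and 354 CPM in aged NSF heads against 1651, 1879, 2097, 2222 and 1962 CPM in young heads. It was at 1047, 805, 808, 732 and 678 CPM in aged NSF bodies against 4559, 4377, 3738, 5008 and 4732 CPM in young bodies. The groups were separate in both tissues, the interval of the difference ran from 0.04 to 0.86, and its adjusted p of 0.136 in edgeR with TMM became 0.048 with RLE and 0.033 in DESeq2. AnxB9, an annexin, rose by 1.52 in heads and 1.16 in bodies and likewise passed under RLE, DESeq2 and TMM over genes seen in both tissues (edgeR adjusted p = 0.141 with TMM over all genes).

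In other groups the counts of kept calls are to be read against 9.55% of all genes seen in both tissues. Among 61 cytochrome P450 genes seen in both tissues 15 fell and 4 rose in heads, 6 fell and 13 rose in bodies, 1 positive and 5 negative differences passed, and 3 were kept (between 3 and 10 calls with 1 library left out). Glutathione S-transferases gave 1 kept call of 26, odorant binding proteins 2 of 14, lipid storage and synthesis genes 2 of 19 and the circadian clock none of 12 (1 call before the other scalings). Of 46 tested testis genes 4 reached 5 CPM in both tissues; 35 of the 46 fell in bodies and 3 passed the interaction test. The 7 testis markers summed to at most 9.69 CPM in any head library. Among genes averaging under 1 CPM in heads, 83 of 2430 passed, and among those under 1 CPM in bodies 21 of 246 did.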

How the data were processed

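Per the study's design text and the submitters' processing notes, the authors trimmed reads with Trimmomatic, mapped them to dm6 with STAR, kept primary alignments of mapping quality 8 or more, and counted reads on exons with HTSeq. Versions, strand setting and annotation are not given in the sources used here. The deposited table holds raw counts per gene for 30 libraries; the authors' DESeq2 table was not used. Counts were fitted with edgeR 4.0.16 in R 4.3.3 (TMM, filterByExpr by group, robust quasi-likelihood, 6 groups, 30 libraries), and the interaction contrast was taken from that fit. CPM are TMM-scaled. The script was tested on simulated data. A gene was called at an adjusted p under 0.05; SE is the absolute log2 change over the root of F. Alternatives used DESeq2 1.42.0, limma 3.58.1, other scalings, filters and left-out libraries. Named genes are the 10 highest and 10 lowest differences, up to 8 opposite genes each way and 4 shared genes each way. They also include up to 3 per list with at least 3 calls, the 5 smallest p, and 3 each way among genes under 1 CPM in 1 tissue. Some genes that met these rules are not described. The genes CG33470, AttA, CG15068, nec, PGRP-LB, PGRP-SB1, mt:ND6, ple, Ddc, Act79B and Scp1 are list members named after their values were seen. The question, the 38 gene lists and the rule were chosen with earlier results of these data known. The labels do not say that equal numbers mark 1 fly, so p-values measure the spread between libraries. Positions are from the Ensembl annotation of BDGP6, the assembly of dm6; 17253 of 17559 identifiers matched. Intervals and floors cover counting error only.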

Additional observations from a re-analysis of the deposited data

Results flagged for a closer look

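The ageing change itself differed between tissues for 1622 genes by the interaction term, and for 123 genes the directions were opposite.

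Single libraries were also screened, on log2(CPM + 1) in groups of 5, for a highest or lowest value set far apart from the rest; 36 of 460 gene and group pairs met this, and chance flags about 1 in 20. In aged NSF body 1, low values were 40.0 CPM for scpr-C, 16.7 for Nup58, 14.8 for FucTB, 73.7 for Pof, 82.3 for MCPH1, 119 for Pmm45A, 12.6 for twe, 73.7 for bol, 0.630 for nht and 51.1 for CG42675, and the high value was 762 CPM for GstE12. In aged NSF body 2, high values were 139 CPM for Arr2, 377 for ninaE, 86.3 for Arr1, 336 for Yp1 and 172 for Yp2. In aged NSF body 5, mt:ND4L was low at 16.3 CPM. In aged NSF head 3, PGRP-SC2 was low at 191 CPM, Yp2 was high at 23.0 CPM and trol was high at 292 CPM, and in aged NSF head 5 mt:CoII was high at 2099 CPM.

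Among young bodies, library 1 was low for scpr-C (135 CPM), FucTB (109 CPM) and CG42675 (155 CPM) and high for CG8329 (0.559 CPM), library 3 was high for Snp (224.5 CPM) and CG44774 (590.4 CPM), and library 5 was high for Nplp3 (421 CPM). Among young heads, library 1 was high for Cyp6a16 (3.79 CPM), ninaE (29275 CPM) and mdy (63.1 CPM) and low for Obp56a (0.421 CPM), library 2 was high for CG42300 (0.262 CPM), library 3 was low for sip3 (35.6 CPM), and library 5 was high for PGRP-SC2 (23.0 CPM) and SPH93 (0.377 CPM).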

How the results depend on the processing

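Counts by direction moved with the scaling, the libraries in the fit and the filter. The interaction gave 833 positive and 534 negative calls with RLE, 1264 positive calls in DESeq2, 895 positive and 472 negative with TMM over genes seen in both tissues (an alternative chosen after seeing the data), 676 negative with a filter of 5 CPM in 5 libraries of each tissue, and 909 calls with 315 negative in a fit of the 20 compared libraries. With at least 2-fold it gave 964 calls, 530 negative, heads alone 1006 (600 higher, 406 lower), bodies alone 2648 (978 higher) and opposite directions 48 genes, against 208 in DESeq2. Calls in bodies, higher and lower, were 1570 and 3538 with RLE, 1682 and 3701 in DESeq2, and 1498 and 1529 of 3027 with the stricter filter; 1637 were higher with TMM over shared genes and 1496 in the fit of 20 libraries. Leaving out 1 library at a time gave 991 to 1885 interaction calls (450 to 905 positive, 317 to 1302 negative), 1665 to 2141 in heads, 4207 to 5154 in bodies (1405 to 2783 higher, 1884 to 3265 lower) and 98 to 153 opposite genes. Negative interaction calls numbered 481 without aged NSF body 3, 381 without young body 2, 317 without young body 3 and 401 without young body 5; in these 4 fits TMM took a head library as its reference and in the other 16 young body 5. In every such fit 565 genes passed in 1 direction. The difference of Phk-3 turned positive, to 0.168 (RLE), 0.15 (stricter filter), 0.167 (DESeq2), 0.0658 and 0.0176 (limma voom with quality or tissue weights), 0.194 (20 libraries), 0.209 (TMM over shared genes) and 0.0822 (without aged NSF bodies 1 and 2), and ran from -0.17 to 0.25 with 1 library left out. That of pot turned to 0.0251, 0.0047, 0.0452, 0.0475 and 0.0645 (RLE, stricter filter, DESeq2, 20 libraries, TMM over shared genes; -0.34 to 0.14 with 1 left out), and slgA ran from -0.031 to 0.30. All 3 were uncalled in every one of these. Equal replicate numbers were not treated as pairs: same-numbered head and body libraries correlated at 0.064 to 0.348 over 15 pairs, 13 of them over 0.1, and 13 correlated best with their own number. With a replicate block of head and body as 1 fly 1978 genes passed, and 1906 with the number as a term; 109 and 111 of the 115 named genes gave the same call. Those lost were Arr2, ninaE, Yp1, Arr1, Yp2 and Yp3 in the block by fly and ninaE, Arr1, Yp2 and Yp3 with the number as a term. Bomanin and other Toll-induced peptides gave 10 and 6 calls of 17 under these blocks, antimicrobial peptides 5 of 16 and immune recognition genes 8 of 20 in the block by fly. At these depths 3 counts per library correspond to a floor of 0.494 to 1.78 CPM.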

Other observations

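The following genes and chromosomes were chosen after their values were seen. Besides mle, the noncoding RNA genes of dosage compensation differed, in the other direction. The RNA roX1 averaged 1824 ± 166 CPM in aged NSF heads and 1910 ± 307 CPM in young heads, against 1051 ± 91.1 CPM in aged NSF bodies and 493 ± 103 CPM in young bodies (SD, n = 5 each), a difference of -1.16 ± 0.18 (edgeR adjusted p = 8.3e-05). The RNA roX2 differed by -1.61 ± 0.39 (edgeR adjusted p = 0.00672). The protein genes msl-1, msl-2, msl-3 and mof did not pass (edgeR adjusted p = 0.268, 0.964, 0.781 and 0.548).

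Among genes seen in both tissues, the median difference was -0.35 for 1258 genes of the X chromosome and -0.45 for 76 genes of chromosome 4, and lay between -0.22 and -0.18 for the arms of chromosomes 2 and 3. With TMM over genes seen in both tissues the X and chromosome 4 medians were -0.11 and -0.21, and the arms of chromosomes 2 and 3 lay between 0.0175 and 0.07. On the X 22 genes passed with a positive and 185 with a negative difference, and on chromosome 4 none passed with a positive and 17 with a negative one. The negative shares were 14.7% and 22.4%, against 13.1% of all genes seen in both tissues. Kept negative calls were 74 on the X (5.88%) and 8 on chromosome 4 (10.5%), against 5.42% of all, and kept positive calls were 22 (1.75%) and 0, against 4.13%. Genes of 1 chromosome are not independent replicates, and no test was made between chromosomes.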
